A study of Oryza sativa Indica Group with 45 samples.

Results

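The genes described here are 6 parts of the circadian clock of rice: the pseudo-response regulator genes PRR1, PRR37, PRR73 and PRR95, the GIGANTEA gene GI, and XCT. They were found as the probe sets that the annotation of the array pairs with a single gene whose RefSeq symbol or synonym, with or without the prefix Os, is one of these names. The search found 6 of 17905 genes and 8 of 57381 probe sets. PRR1 is read by Os.26572.1.S1_at, PRR95 by Os.8142.1.S1_a_at, GI by Os.7987.1.S1_at and XCT by Os.11434.1.S1_at. PRR37 and PRR73 have a pair of probe sets each. PRR37 is represented below by Os.14563.1.S2_at and PRR73 by Os.8104.1.S2_a_at, which have the higher mean, and the other member of each pair, Os.14563.1.S1_at and Os.8104.1.S1_a_at, is described after them. These pairs are called S1 and S2 of PRR37 and of PRR73 after that part of their names. The annotation carries HD2 and DTH7 as further names of PRR37, and it places PRR95 and XCT on the same chromosome with 18 protein-coding genes between them.

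The plant clock is a set of genes that repress and activate each other so that their transcripts rise and fall once a day. The pseudo-response regulators form one family in this loop. In rice their transcripts peak one after another through the day, PRR73 and PRR37 before PRR95 and PRR1 last, and in Arabidopsis the proteins repress the morning gene CCA1. GI carries timing from the clock to the flowering gene HD1, and XCT was described in Arabidopsis as a gene needed for normal clock timing.

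Transcript levels were measured with Affymetrix rice arrays in MRP5401, a hybrid of indica rice, in its female parent PMS80 (the B line, here the B parent) and in its male parent PR319 (the R line, here the R parent). Seedlings aged 14 days gave the samples called young leaf and young root, plants aged 40 to 60 days those called mature leaf and mature root, and plants of 90 days the flag leaves. No treatment was applied to any group, and the one growth protocol in the labels, hydroponic culture, is given for every sample. Each of the 15 groups held 3 arrays, called biological replicates in the labels, and this number sets how precise each value can be. The labels do not say whether a replicate is 1 plant or a pool, and they do not give the hour of harvest. For genes whose transcripts cycle daily, a difference between groups in level and one in hour of harvest therefore cannot be told apart, and this holds for every comparison below. In whole leaves and roots, fewer cells that use a gene and less RNA per cell cannot be told apart either.

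Levels are log2 intensities. A group is given as its 3 arrays or as mean ± SD (n = 3), and a difference as log2 ± SE from a limma fit over all 45 arrays, so that a difference of 1 is a doubling. Levels of one probe set are compared only with each other, never with another probe set. The words rose, fell, higher and lower stand for a test only where the Benjamini-Hochberg adjusted p over all 24130 tested probe sets was under 0.05, and adjusted p-values below are from limma throughout. A probe set was tested if its mean log2 level in some group was 5 or more, as it was for all 8. A mean under 5 is close to background. Mid-parent stands for the average of the B and R parent log2 means. Beside the first count of clock genes in a comparison stands the percentage of all tested probe sets that passed the same test.

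The labelled tissues were checked with marker genes. The mean level of 6 photosynthesis genes lay between 13.61 and 14.44 in the leaf groups and between 3.01 and 3.18 in mature roots. Young roots stood between these, at 10.13 ± 0.43 in the B parent, 9.65 ± 0.15 in the R parent and 11.96 ± 0.34 in the hybrid. The mean of 7 root genes lay between 5.78 and 9.95 in roots and between 4.51 and 6.04 in leaves. One of the 7, NAAT1, went the other way, at 13.13 to 14.62 in mature and flag leaves and 3.44 to 4.23 in mature roots. The other 6, separated after these levels were seen, averaged 6.18 to 9.92 in roots and 3.61 to 4.61 in leaves. Not each of these 6 parted the tissues at both ages. IRT1 stood at 3.4 to 3.53 in young roots and 3.54 to 5.44 in leaves. LSI1 stood at 9.46 to 10.46 in mature roots and 9.18 to 10.03 in mature leaves. NAS2 was close to background in mature roots (2.71 to 3.34). Of all 7, 4 were lower and 1 higher in mature leaves than in mature roots, where 86.4% of all probe sets were called. Young leaf arrays of the R parent had the highest hybridization spike-in signal of the 15 groups (mean log2 13.14 ± 0.42) and the lowest correlation with each other (mean 0.979, against 0.989 to 0.994 in the other groups). Mature root arrays of the R parent had the lowest ratio of 3' to 5' signal over 4 control genes (log2 1.59 ± 0.10, where the B parent had 3.71 ± 0.28 and the hybrid 3.63 ± 0.14).

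**Figure D1:**
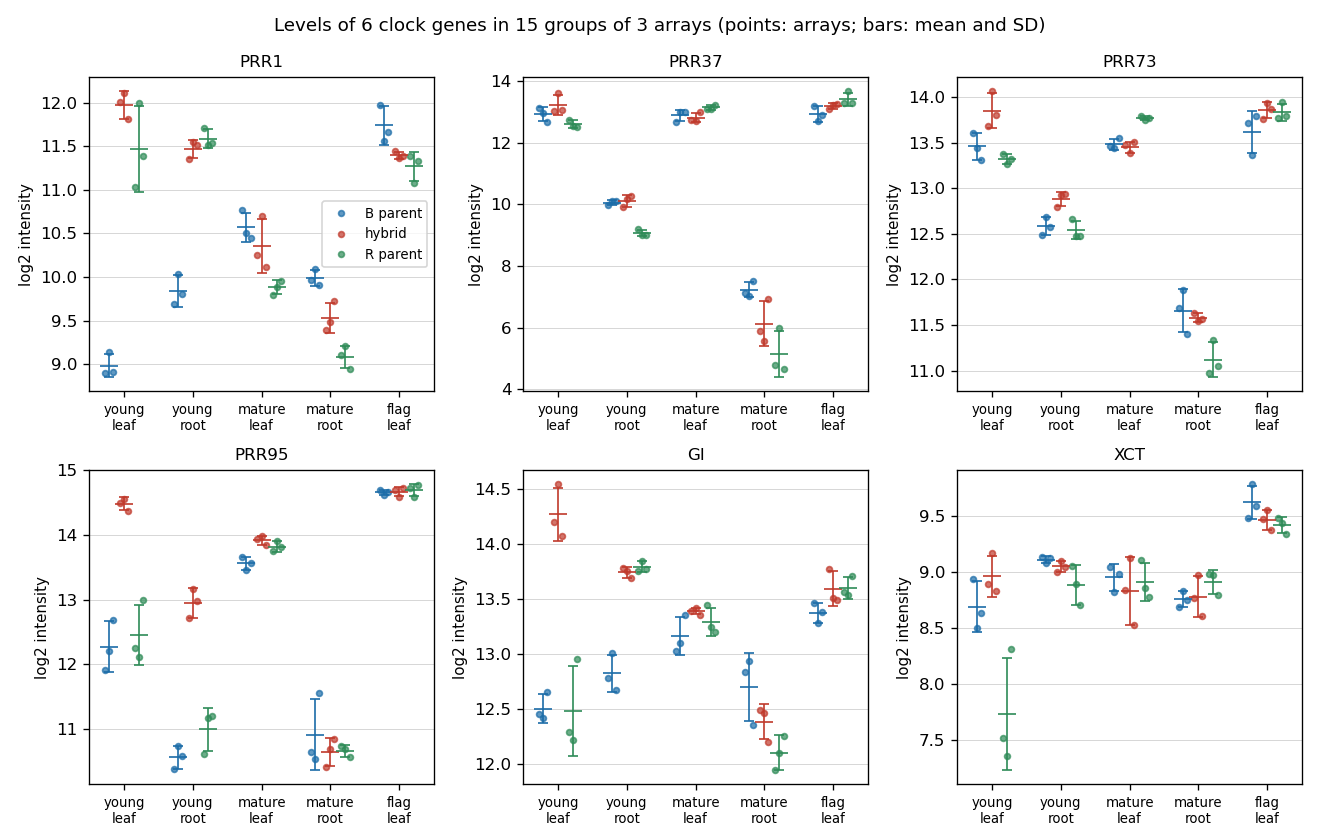
Log2 intensity of each gene (vertical axis, own scale per gene) in young leaf, young root, mature leaf, mature root and flag leaf (horizontal axis) of the B parent, the hybrid and the R parent. Points are arrays and bars the mean and SD of 3 arrays. In young leaves the hybrid arrays of PRR95 (14.37 to 14.56) and GI (14.07 to 14.54) lie above all 6 parent arrays, and PRR37 has its lowest means in mature roots.

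Across the 15 groups the genes differed in how far their levels ranged. PRR37 ranged furthest, by 8.28, from 13.42 ± 0.21 in flag leaves of the R parent down to 5.14 ± 0.75 in mature roots of the R parent. PRR95 ranged by 4.13, from 14.69 in flag leaves of the R parent to 10.56 in young roots of the B parent. PRR1 ranged by 2.99, PRR73 by 2.74, GI by 2.17 and XCT by 1.89. By the second probe sets PRR37 S1 ranged by 6.49 and PRR73 S1 by 5.14, which is further than PRR95. The first and last place lay in the same tissue and age for PRR1, which was highest in young leaves of the hybrid (11.97 ± 0.16) and lowest in young leaves of the B parent (8.98 ± 0.13).

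With the groups ordered by level, most neighbours in the order had overlapping arrays. Of 14 neighbouring pairs 11 overlapped for PRR1, 10 for PRR37, 9 for PRR73, 9 for PRR95, 11 for GI and 12 for XCT. For GI, young leaves of the hybrid (14.27 ± 0.24) came first and stood clear of the next group, young roots of the R parent (13.79 ± 0.05). For PRR95 the 3 flag leaf groups came first and overlapped, followed by young leaves of the hybrid (14.48 ± 0.10), which overlapped neither the group above it nor the one below. For PRR1 the first 7 groups (11.97 down to 11.27, young leaves and young roots of the R parent and the hybrid and all 3 flag leaf groups) formed an unbroken run of overlapping neighbours, with a gap before mature leaves of the B parent (10.57 ± 0.17). XCT had 14 of its groups in 2 runs, the 3 flag leaf groups (9.42 to 9.62) and then a run of 11 groups from 9.11 to 8.69, and below both lay young leaves of the R parent (7.73 ± 0.50).

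The parents were compared at each stage, which asks where the lines that made the hybrid differ. In young leaves PRR1 was higher in the R parent and XCT lower, and the other 4 did not pass, so 2 of 6 genes were called where 46.3% of all tested probe sets were. PRR1, the rice counterpart of the Arabidopsis clock gene TOC1, read 11.03, 12.00 and 11.39 on the R parent arrays and 8.90, 9.14 and 8.91 on the B parent arrays. These arrays did not overlap. The difference was 2.49 ± 0.17 (adjusted p = 2.38e-14), a 5.62-fold level in the R parent. XCT read 7.52, 7.36 and 8.31 in the R parent and 8.94, 8.50 and 8.63 in the B parent. All 3 arrays of the R parent lay below all 3 of the B parent, and the first and second lay far below the third. The difference was -0.96 ± 0.17 (adjusted p = 1.63e-05), and without replicates 1 and 2 of the R parent, the pair low in XCT, it was -0.38 (adjusted p = 0.148). Leaving out the same pair turned the PRR95 difference from 0.19 ± 0.21 (adjusted p = 0.527) to 0.73 (adjusted p = 0.0393).

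In young roots 3 of 6 genes differed between the parents, beside 28.6% of all probe sets. PRR1 was again higher in the R parent, with 11.71, 11.52 and 11.54 against 9.69, 10.03 and 9.80 in the B parent. The gap was 1.75 ± 0.17 (adjusted p = 2.99e-10) and no array of one parent reached those of the other. GI read 13.75, 13.84 and 13.77 in the R parent and 12.78, 13.01 and 12.67 in the B parent, a difference of 0.97 ± 0.16 (adjusted p = 1.17e-05). PRR37, a repressor of flowering in long days, went the other way, with 9.20, 9.01 and 9.01 in the R parent against 9.97, 10.11 and 10.11 in the B parent (-0.99 ± 0.26, adjusted p = 0.00318). PRR37 S1 did not pass in this comparison (-0.28, adjusted p = 0.779). PRR73 differed by -0.05 ± 0.13, PRR95 by 0.42 ± 0.21 and XCT by -0.23 ± 0.17, and none of these passed. PRR95 passed without young root R parent replicate 1 (0.61, adjusted p = 0.0443).

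The order of the parents in PRR1 was the reverse in the older plants. In mature leaves PRR1 was the 1 gene of 6 that passed, where 15.2% of all probe sets did. It read 9.79, 9.89 and 9.95 in the R parent and 10.77, 10.50 and 10.45 in the B parent, so that the R parent was now the lower one without overlap (-0.69 ± 0.17, adjusted p = 0.00376). In flag leaves PRR1 had the same sign without passing (-0.47 ± 0.17, adjusted p = 0.0718). None of the 6 genes passed limma's test there, 1 had an unadjusted p under 0.05, and 12.7% of all probe sets were called.

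In mature roots 4 of 6 genes were lower in the R parent, in a comparison that called 58.9% of all probe sets. PRR1 read 9.10, 9.21 and 8.94 in the R parent and 9.96, 10.09 and 9.91 in the B parent (-0.91 ± 0.17, adjusted p = 2.83e-05). PRR37 read 4.77, 5.99 and 4.64 in the R parent and 7.13, 7.04 and 7.51 in the B parent. The R parent arrays were all lower, and 2 of them were under 5. The difference was -2.09 ± 0.26 (adjusted p = 2.09e-08). GI read 11.94, 12.10 and 12.25 in the R parent and 12.83, 12.93 and 12.35 in the B parent (-0.61 ± 0.16, adjusted p = 0.00154), again without overlap. PRR73, known in rice for a part in salt tolerance, read 10.98, 11.34 and 11.05 against 11.69, 11.88 and 11.40 (-0.54 ± 0.13, adjusted p = 0.000484).

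The R parent's mature root arrays are those with the low 3' to 5' ratio given above, and within mature roots the ratio and the parent cannot be told apart. In a fit over all stages with that ratio as a covariate PRR1, PRR37 and GI differed by -1.03, -1.75 and -0.81 and passed, PRR73 by -0.10 and did not (adjusted p = 0.731), and PRR95 by -1.08 and now passed (adjusted p = 0.00581).

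Whether the parents differed otherwise in one stage than in another was tested directly. Between young and mature leaves, the R minus B difference changed for 2 of 6 genes (37.1% of all probe sets), and it did so most in PRR1, by 3.18 ± 0.24 (adjusted p = 1.58e-12). PRR73 S1 changed too (-2.13, adjusted p = 2.31e-05), though not with the spike-in covariate (-0.84, adjusted p = 0.264). PRR73 S2 gave -0.42 there (adjusted p = 0.0621). Between young and mature roots the R minus B difference changed for 4 of 6 genes (47.7% of all probe sets). By the representative probe sets all 4 changed toward a higher R parent in young roots. PRR73 S1 changed the other way (-1.48, adjusted p = 0.00133). PRR1 changed by 2.66 ± 0.24 and GI by 1.57 ± 0.23. GI thus passed in young roots with the R parent higher and in mature roots with the R parent lower. PRR37 changed by 1.10 ± 0.37 (adjusted p = 0.0137) and PRR73 by 0.49 ± 0.18 (adjusted p = 0.0244), but with the 3' to 5' ratio as a covariate these were 0.66 and -0.07 (adjusted p = 0.457 and 0.875). Neither passed without mature root R parent replicate 1 or 3 (PRR37 0.92 and 0.85, PRR73 0.42 and 0.45), and PRR73 also not without young root replicate 1 of either parent or mature root B parent replicate 2 (0.38 to 0.44). Between young leaves and young roots, 3 of 6 genes changed (41.0% of all probe sets). PRR73 S1 changed as well (-2.31, adjusted p = 6.02e-06), where PRR73 S2 gave -0.09 (adjusted p = 0.741). The parents' GI levels were 12.48 and 12.50 in young leaves, a difference of -0.02 ± 0.16, so that the 0.97 seen in young roots gave a change of -0.98 ± 0.23 (adjusted p = 0.000725). It was -0.52 (adjusted p = 0.108) without young leaf R parent replicates 1 and 2. The change of PRR1 was 0.74 ± 0.24 (adjusted p = 0.0141), and 0.48 (adjusted p = 0.087) without young leaf R parent replicate 2. The change of XCT was -0.73 ± 0.24 (adjusted p = 0.015). It did not pass after quantile normalization (-0.34, adjusted p = 0.223), in a fit of these stages alone (adjusted p = 0.0599), or without young leaf R parent replicate 2 (-0.54, adjusted p = 0.0722) or B parent replicate 1 (-0.60, adjusted p = 0.0545).

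**Figure D2:**
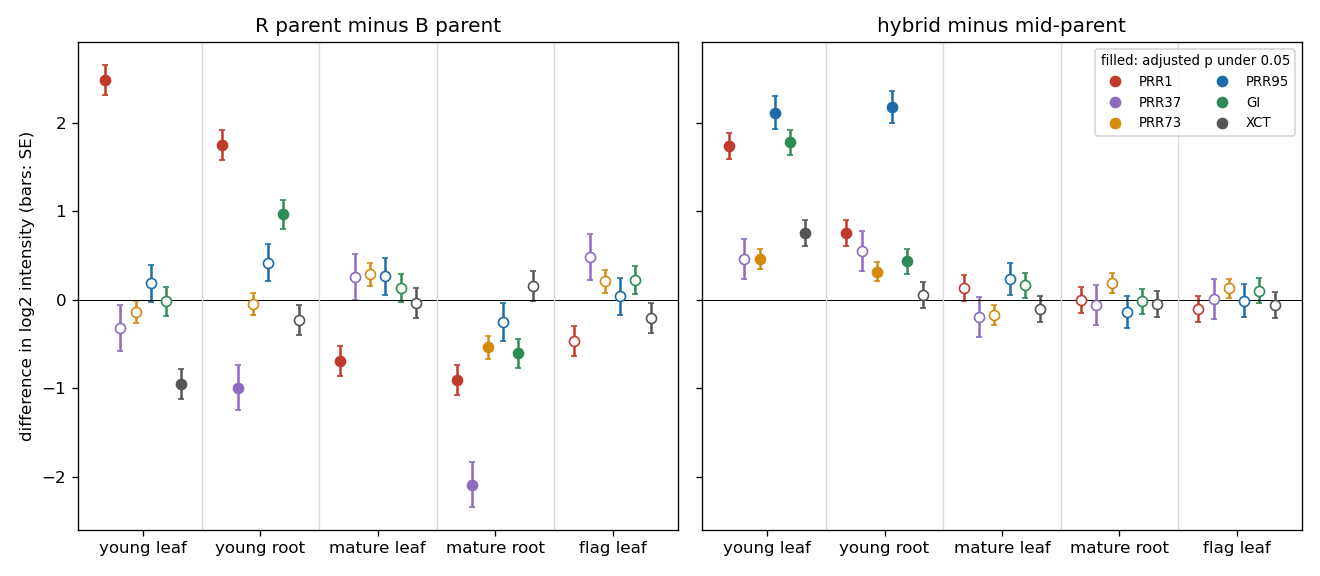
Difference in log2 intensity (vertical axis, bars are SE) of the R parent minus the B parent (left) and of the hybrid minus the mid-parent (right) for the 6 genes at 5 stages (horizontal axis), with filled points where the adjusted p was under 0.05. PRR1 is above 0 in young and below 0 in mature tissue on the left (2.49 and 1.75, then -0.69 and -0.91). On the right, all filled points lie above 0 and belong to young leaf and young root.

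The hybrid was set against each parent and the mid-parent to ask where its level is not that of the parents. In young leaves all 6 genes were higher in the hybrid than in the R parent (51.4% of all probe sets were called), 4 were higher than in the B parent (36.4%), and 5 were higher than the mid-parent (46.9%). PRR1, PRR73, PRR95 and GI lay above both parents, a state that 19.9% of all probe sets showed in either direction. The median over the 6 genes of hybrid minus mid-parent was 1.25, beside 0.17 over all tested probe sets. That shift of the whole array was 0.03 after quantile normalization, where PRR1, PRR73, PRR95, GI and XCT still passed at 1.62, 0.34, 1.87, 1.54 and 0.50.

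PRR95 had the widest gap of the 6 genes to the mid-parent. Its hybrid arrays read 14.50, 14.56 and 14.37, those of the B parent 11.91, 12.21 and 12.68 and those of the R parent 12.25, 12.11 and 12.99. The lowest hybrid array stood far above the highest parent array, while the parents overlapped. The hybrid was higher than the B parent by 2.21 ± 0.21 (adjusted p = 2.78e-10), than the R parent by 2.03 ± 0.21 (adjusted p = 7.98e-10) and than the mid-parent by 2.12 ± 0.18, or 4.34-fold. With the spike-in signal as a covariate the last value was 1.26 (adjusted p = 0.000191).

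GI had a like pattern. Hybrid arrays read 14.20, 14.54 and 14.07, B parent arrays 12.45, 12.41 and 12.65 and R parent arrays 12.29, 12.21 and 12.95. The hybrid lay above the B parent by 1.77 ± 0.16 (adjusted p = 8.8e-11) and above the R parent by 1.79 ± 0.16 (adjusted p = 3.17e-11), and again no arrays overlapped. With each young leaf array left out in turn, PRR95 and GI kept both calls, at 1.86 or more and 1.64 or more.

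PRR1 stood at 12.01, 12.11 and 11.81 in the hybrid. That is far above the B parent (2.99 ± 0.17, adjusted p = 6.02e-16) and near the R parent, whose second array, 12.00, lay among the hybrid's. The gap to the R parent was 0.50 ± 0.17 (adjusted p = 0.014). It was 0.25 after quantile normalization (adjusted p = 0.253) and 0.28 without R parent replicate 1 (adjusted p = 0.196), so a level above both parents rests on the scaling and on that array. It also did not pass without hybrid replicate 2 (0.43, adjusted p = 0.0652), with array weights (0.47, adjusted p = 0.0597), with the spike-ins as a covariate (0.41, adjusted p = 0.37) or when only young leaf arrays were fitted (adjusted p = 0.127).

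The excess of PRR73 was smaller. Its hybrid arrays read 13.68, 14.06 and 13.80, against 13.61, 13.44 and 13.31 in the B parent and 13.38, 13.26 and 13.32 in the R parent. The hybrid arrays were the highest of the 9. The gap was 0.39 ± 0.13 to the B parent (adjusted p = 0.0148) and 0.53 ± 0.13 to the R parent (adjusted p = 0.000683). The first did not pass without hybrid replicate 2 (0.29, adjusted p = 0.124) or B parent replicate 3 (0.32, adjusted p = 0.0826), or when only young leaf arrays were fitted (adjusted p = 0.0662).

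XCT in the hybrid, at 8.89, 9.17 and 8.83, was higher than in the R parent by 1.23 ± 0.17 (adjusted p = 2.11e-07) and did not pass against the B parent (0.28 ± 0.17, adjusted p = 0.22). Against the mid-parent it rose by 0.75 ± 0.15 (adjusted p = 7.31e-05). This was 0.47 (adjusted p = 0.0068) without R parent replicates 1 and 2, and 0.50 (adjusted p = 0.124) with the spike-ins as a covariate. PRR37 read 13.02, 13.62 and 13.06 and passed against the R parent alone (0.62 ± 0.26, adjusted p = 0.0432), a call lost without hybrid replicate 2 (0.43, adjusted p = 0.228) and after quantile normalization (0.41, adjusted p = 0.203). It was also lost without R parent replicate 2 or 3, with array weights or the spike-in covariate, and without R parent replicates 1 and 2.

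In young roots of the hybrid 3 of 6 genes were higher than in the B parent (25.7% of all probe sets called), 2 higher than in the R parent (20.7%) and 4 higher than the mid-parent (20.3%). Only PRR95 among the 6 lay above both parents, where 7.14% of all probe sets lay outside both. Its hybrid arrays read 12.71, 13.17 and 12.97, those of the B parent 10.37, 10.74 and 10.58 and those of the R parent 10.61, 11.16 and 11.19. The hybrid thus stood well clear of both parents, by 2.39 ± 0.21 (adjusted p = 4.98e-11) and 1.97 ± 0.21 (adjusted p = 5.69e-09), and 2.18 ± 0.18 above the mid-parent.

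PRR1 and GI in hybrid young roots lay at the level of the higher parent. PRR1 read 11.36, 11.55 and 11.51, which was 1.63 ± 0.17 above the B parent (adjusted p = 2.41e-09) and -0.12 ± 0.17 from the R parent (adjusted p = 0.738). GI read 13.78, 13.75 and 13.69, which was 0.92 ± 0.16 above the B parent (adjusted p = 3.43e-05) and -0.05 ± 0.16 from the R parent (adjusted p = 0.922). For both genes the hybrid arrays overlapped those of the R parent and lay above all of the B parent. Against the mid-parent PRR1 rose by 0.76 ± 0.15 (adjusted p = 0.000203) and GI by 0.44 ± 0.14 (adjusted p = 0.0228). The value for GI was 0.36 against a mid-parent taken on the linear scale (adjusted p = 0.0674) and 0.38 with the spike-ins as a covariate (adjusted p = 0.0608), and it did not pass without hybrid replicate 1 or 2 or B parent replicate 3 (adjusted p = 0.0532 to 0.0847).

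PRR37 in hybrid young roots lay at the level of its higher parent too, here the B parent. The arrays read 9.91, 10.19 and 10.28, a gap of 0.06 ± 0.26 to the B parent (adjusted p = 0.937) and of 1.05 ± 0.26 to the R parent (adjusted p = 0.00271). By PRR37 S1 the hybrid passed against neither the B parent (0.455, adjusted p = 0.613) nor the R parent (0.735, adjusted p = 0.383). PRR73 rose by 0.32 ± 0.11 against the mid-parent (adjusted p = 0.0357) and missed the threshold against each parent (0.30 ± 0.13 and 0.34 ± 0.13, adjusted p = 0.0873 and 0.0513). After quantile normalization its value against the mid-parent was 0.31 (adjusted p = 0.0618), and it passed in 3 of 9 fits with 1 young root array left out (0.29 to 0.37). The photosynthesis markers given above also had their highest root mean in hybrid young roots. The mean of the 7 root genes was the lowest of the young roots there (8.02 ± 0.24, where the B parent had 9.95 ± 0.14 and the R parent 8.43 ± 0.17). Against the B parent 2 of the 7 passed as lower, and against the R parent 0 passed. The widest gaps to the B parent were those of NAS1 (3.11 beside 9.7) and NAS2 (3.16 beside 10.03). Means of LSI1 and LSI2 were highest in the hybrid, those of AMT1-2 and NAAT1 lowest, and that of IRT1 between the parents. The part of either list in these root results was not tested.

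In the older tissues none of the 6 genes, as read by its representative probe set, passed against the mid-parent. The limma fit called 0 of 6 in mature leaves, mature roots and flag leaves alike, with 0 at an unadjusted p under 0.05, where 4.88%, 23.0% and 10.1% of all probe sets were called. By the same probe sets 0 lay outside both parents, against 0.986%, 5.03% and 2.73% of all probe sets. The values against the mid-parent ran from -0.20 ± 0.23 (PRR37) to 0.23 ± 0.18 (PRR95) in mature leaves, from -0.14 ± 0.18 (PRR95) to 0.19 ± 0.11 (PRR73) in mature roots and from -0.10 ± 0.15 (PRR1) to 0.13 ± 0.11 (PRR73) in flag leaves. The second probe sets of PRR37 and PRR73 did pass in some of these tissues and are described with the probe set pairs.

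Single parents gave few calls there. In mature leaves 0 of 6 genes passed against the B parent (10.7% of all probe sets) and 0 against the R parent (6.84%), with 0 and 2 at an unadjusted p under 0.05. In flag leaves 0 passed against either parent, with 0 unadjusted, beside 11.9% and 10.7% of all probe sets. In mature roots PRR1 (-0.46 ± 0.17, adjusted p = 0.0357) and PRR37 (-1.10 ± 0.26, adjusted p = 0.00108) were lower in the hybrid than in the B parent, 2 of 6 beside 34.3%. PRR1 (0.45 ± 0.17, adjusted p = 0.0354), PRR37 (0.99 ± 0.26, adjusted p = 0.00252) and PRR73 (0.46 ± 0.13, adjusted p = 0.00425) were higher than in the R parent, 3 of 6 beside 39.8%. PRR1 and PRR37 in the hybrid, at 9.39, 9.48 and 9.72 and at 5.88, 5.55 and 6.94, lay between the parents' means. All 3 calls against the R parent were lost with the 3' to 5' ratio as a covariate (PRR1 0.56, PRR37 0.66 and PRR73 0.03, adjusted p = 0.203, 0.345 and 0.938). Without hybrid replicate 3, its highest array in both genes, the differences from the R parent were 0.58 for PRR37 (adjusted p = 0.0641) and 0.35 for PRR1 (adjusted p = 0.151). PRR1 also did not pass there without hybrid replicate 2 (0.47) or R parent replicate 1 or 3 (0.46 and 0.38), nor did PRR1 and PRR73 with the spike-in covariate (0.49 and 0.25, adjusted p = 0.0837 and 0.2). The call of PRR1 against the B parent was lost without hybrid replicate 1 or 2 or any 1 B parent array (-0.50 to -0.39), and with the spike-in covariate (-0.44, adjusted p = 0.0534). In a fit of the mature root arrays alone, PRR37 did not pass against the B parent (adjusted p = 0.0992) or the R parent (adjusted p = 0.118), nor PRR73 against the R parent (adjusted p = 0.0587).

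The hybrid's departure from the mid-parent was larger in young than in mature leaves for 5 of 6 genes (36.5% of all probe sets changed in either direction), with PRR95 at 1.89 ± 0.26, PRR1 and GI at 1.62 (SE 0.21 and 0.20), XCT at 0.85 ± 0.21 and PRR73 at 0.63 ± 0.16. PRR37 gave 0.66 ± 0.32 (adjusted p = 0.104). It was larger in young than in mature roots for 2 of 6 genes (21.3% of all probe sets), PRR95 at 2.32 ± 0.26 and PRR1 at 0.76 ± 0.21. Between young leaves and young roots it was larger in leaves for 3 of 6 genes (41.0% of all probe sets), GI at 1.34 ± 0.20, PRR1 at 0.99 ± 0.21 and XCT at 0.70 ± 0.21. XCT did not pass after quantile normalization (0.41, adjusted p = 0.0935), with the spike-in covariate (0.51, adjusted p = 0.12) or without young leaf R parent replicates 1 and 2 (0.41, adjusted p = 0.0732). For PRR95 the leaf and root departures differed by -0.06 ± 0.26 (adjusted p = 0.887). These comparisons share the same hybrid and parent arrays.

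Tissues and ages were compared with the genotypes averaged. Mature leaves exceeded mature roots in 5 of 6 genes, in a comparison that called 86.4% of all probe sets. PRR37 stood at 12.95 in the leaf and 6.16 in the root, a gap of 6.79 ± 0.15 or 110.0-fold. PRR95 differed by 3.03 ± 0.12, PRR73 by 2.11 ± 0.07, GI by 0.88 ± 0.09 and PRR1 by 0.74 ± 0.10. XCT gave 0.08 ± 0.10 (adjusted p = 0.44). The PRR genes other than PRR1 were thus the ones with the widest leaf to root gap. For all tested probe sets the median of this comparison was -0.35.

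At 14 days the leaf exceeded the root in PRR37 (3.17 ± 0.15), PRR95 (1.57 ± 0.12) and PRR73 (0.87 ± 0.07), while GI (-0.36 ± 0.09) and XCT (-0.55 ± 0.10) were higher in the root and PRR1 did not pass (-0.16 ± 0.10, adjusted p = 0.14). That made 5 of 6 genes beside 81.3% of all probe sets, whose median was -0.41 (-0.06 after quantile normalization). With the spike-in covariate GI (-0.15) and XCT (-0.31) no longer passed (adjusted p = 0.511 and 0.174). The leaf excess of PRR73 was that of PRR73 S2. PRR73 S1 had the other sign without passing (-0.26, adjusted p = 0.108). It passed as lower in the leaf with array weights (-0.34, adjusted p = 0.0412) and in 2 of 18 fits with 1 array left out.

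Levels in roots were lower at the later age. Mature roots were lower than young roots in 5 of 6 genes (77.1% of all probe sets were called), PRR37 by -3.59 ± 0.15, PRR1 by -1.43 ± 0.10, PRR73 by -1.22 ± 0.07, GI by -1.05 ± 0.09 and PRR95 by -0.76 ± 0.12. The second probe sets fell by less, PRR37 S1 by -0.79 (adjusted p = 0.0188) and PRR73 S1 by -0.63 (adjusted p = 0.000354). Neither fall held once the spike-in covariate was added (-0.385 and -0.245, adjusted p = 0.375 and 0.196). Quantile normalization also removed the PRR37 S1 call (-0.497, adjusted p = 0.145). So did leaving out young root hybrid replicate 3 or B parent replicate 3 (-0.566 and -0.659). XCT did not pass (-0.20 ± 0.10, adjusted p = 0.0683). The photosynthesis markers also fell between these groups, from 9.65 or more to 3.18 or less. Of the 7 root genes 6 were lower and 1 higher in mature roots (median -3.67), and the part of either list was not tested. In leaves the change was less uniform. Mature leaves were higher than young ones in PRR95 (0.70 ± 0.12) and XCT (0.44 ± 0.10) and lower in PRR1 (-0.54 ± 0.10), 3 of 6 genes beside 65.7%. PRR73 and PRR37 differed by 0.03 ± 0.07 and 0.02 ± 0.15 and did not pass, but after quantile normalization PRR73 was lower in mature leaves (-0.25, adjusted p = 0.00527), and with the 3' to 5' ratio as a covariate it was higher (0.35, adjusted p = 0.0282) while PRR95 no longer passed (0.10, adjusted p = 0.752). GI did not pass (0.19 ± 0.09, adjusted p = 0.0675).

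Flag leaves exceeded mature leaves in 5 of 6 genes, where 64.2% of all probe sets were called. PRR1 rose by 1.20 ± 0.10, PRR95 by 0.90 ± 0.12, XCT by 0.60 ± 0.10, GI by 0.24 ± 0.09 and PRR73 by 0.20 ± 0.07, and PRR37 did not pass (0.24 ± 0.15, adjusted p = 0.178). PRR95 was nearly equal in flag leaves of the 3 genotypes, at 14.58 to 14.77 over the 9 arrays. The 3' to 5' ratio was lower in mature leaves (group means 2.21 to 2.59) than in flag leaves (3.47 to 4.13). With it as a covariate PRR73 was -0.09 (adjusted p = 0.587) and GI 0.38 (adjusted p = 0.0636), and the other 3 calls held. GI also did not pass with the spike-in covariate (0.18, adjusted p = 0.123) or without flag leaf hybrid replicate 1 (0.21, adjusted p = 0.0535). PRR37 S1, unlike PRR37 S2, was lower in flag than in mature leaves (-0.99, adjusted p = 0.00431). With the 3' to 5' ratio as a covariate PRR37 S1 did not pass (-0.95, adjusted p = 0.167).

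The second probe sets of PRR37 and PRR73 did not tell the same story as the first in every group. The annotation pairs both of a gene's probe sets with that gene alone and does not say which transcript forms each one reads. Over the 15 group means the 2 probe sets of PRR37 correlated at r = 0.884 and those of PRR73 at r = 0.558.

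For PRR37 they parted in flag leaves. PRR37 S1 read 7.88, 6.66 and 7.25 in the hybrid, against 10.53, 10.49 and 9.07 in the B parent and 9.01, 10.51 and 10.54 in the R parent. All hybrid arrays lay below all parent arrays, and the hybrid differed by -2.77 ± 0.52 from the B parent (adjusted p = 0.000358) and by -2.76 ± 0.52 from the R parent (adjusted p = 0.000285), and so lay below the mid-parent (-2.76 ± 0.45, adjusted p = 5.69e-05). On the same arrays PRR37 S2 read 13.09, 13.22 and 13.26 in the hybrid, within the 12.72 to 13.67 of the parents. In mature leaves PRR37 S1 was higher in the R parent than in the B parent (1.76 ± 0.52, adjusted p = 0.0176) and in the hybrid than in the B parent (1.70 ± 0.52, adjusted p = 0.0306), where PRR37 S2 gave 0.26 ± 0.26 and -0.07 ± 0.26. These 2 calls did not pass with the spike-in covariate (1.08 and 1.07, adjusted p = 0.341 and 0.41) or without mature leaf B parent replicate 2 or 3 (1.55 to 1.67). The first also failed without R parent replicate 3 (1.46), and the second without hybrid replicate 2 or 3 (1.68 and 1.41) and with no filter on low levels (adjusted p = 0.0674). In mature roots both probe sets were lower in the R parent than in the B parent, PRR37 S1 by at least 0.58 with the R parent mean, 4.21, set to 5. The limma test was of the means as read, which differed by -1.37 (adjusted p = 0.0241). That call did not pass with no filter on low levels (adjusted p = 0.0522), with the 3' to 5' ratio as a covariate (adjusted p = 0.222) or without mature root B parent replicate 3 or R parent replicate 2 or 3 (adjusted p = 0.0572 to 0.0939).

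For PRR73 the probe sets passed in opposite directions in mature roots. PRR73 S1 read 8.60, 9.10 and 9.04 in the R parent, 7.17, 7.54 and 7.60 in the B parent and 6.96, 7.41 and 7.04 in the hybrid. The R parent stood above the others without overlap, by 1.48 ± 0.26 over the B parent (adjusted p = 1.14e-05), while PRR73 S2 was lower in the R parent (-0.54). The hybrid was lower than the R parent in S1 (-1.78 ± 0.26, adjusted p = 1.4e-06) and higher in S2 (0.46). With the 3' to 5' ratio as a covariate neither R minus B difference passed (0.33 for PRR73 S1, adjusted p = 0.518), nor did the hybrid minus R parent value of PRR73 S1 (-0.68, adjusted p = 0.227). Against the mid-parent PRR73 S1 was lower in the hybrid (-1.04 ± 0.23, adjusted p = 0.0008), and with the covariate this was -0.51 (adjusted p = 0.142). Between young and mature roots the R minus B difference changed by -1.48 in PRR73 S1 (adjusted p = 0.00133) and by 0.49 in PRR73 S2. For PRR73 S1 that change was -0.01 with the 3' to 5' ratio as a covariate (adjusted p = 0.992) and -0.86 with the spike-ins (adjusted p = 0.0586).

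In young leaves PRR73 S1 read 6.17, 6.77 and 6.57 in the R parent, 8.27, 8.78 and 9.39 in the B parent and 9.44, 9.55 and 8.80 in the hybrid. Here the R parent was lowest, with a difference from the B parent of -2.31 ± 0.26 (adjusted p = 4.41e-09), while PRR73 S2 differed by -0.14 ± 0.13 and did not pass. In the hybrid PRR73 S1 was 2.76 ± 0.26 above the R parent (adjusted p = 1.04e-10) and did not pass against the B parent (0.45 ± 0.26, adjusted p = 0.186), except without B parent replicate 3 (0.74, adjusted p = 0.0358). With age the pair also differed, since PRR73 S1 rose from young to mature leaves by 3.34 ± 0.15 (adjusted p = 7.3e-20) and fell from mature to flag leaves (-1.68 ± 0.15, adjusted p = 5.73e-12). In flag leaves it was higher in the hybrid than in the B parent (0.98 ± 0.26, adjusted p = 0.011) and than the mid-parent (0.70 ± 0.23, adjusted p = 0.0436). Without flag leaf hybrid replicate 1, the highest array, these were 0.71 (adjusted p = 0.147) and 0.43 (adjusted p = 0.497). The second passed in 2 of 9 fits with 1 flag leaf array left out, and not after quantile normalization (0.68, adjusted p = 0.0573).

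**Figure D3:**
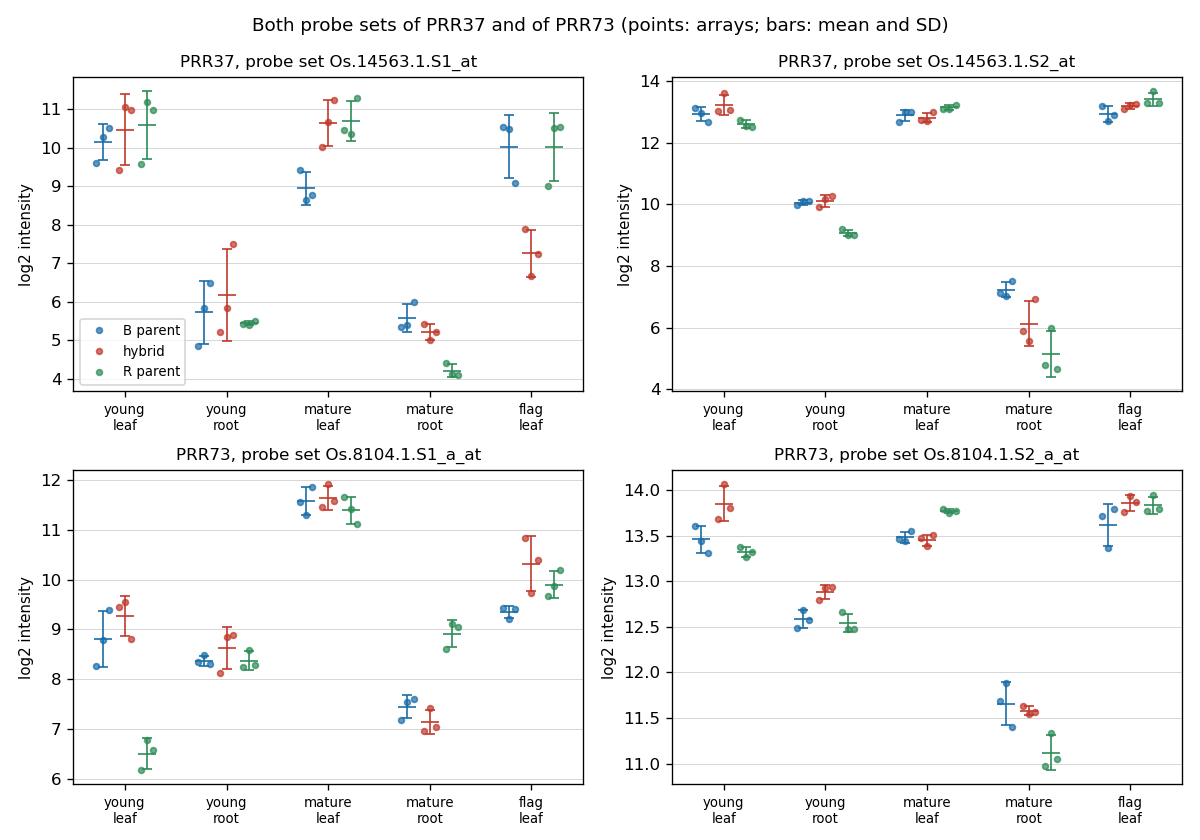
Log2 intensity (vertical axis, own scale per panel) of both probe sets of PRR37 (top) and PRR73 (bottom) at 5 stages (horizontal axis) in the B parent, the hybrid and the R parent. Points are arrays and bars the mean and SD of 3 arrays. In the left panels the hybrid flag leaf arrays of PRR37 (6.66 to 7.88) lie below the parents and the R parent mature root arrays of PRR73 (8.60 to 9.10) above the others, which the right panels do not show.

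Correlations over the 15 group means were first taken between the representative probe sets. By these, PRR37 and PRR73 followed each other closely (Pearson r = 0.989), and each followed PRR95 (r = 0.847 and 0.88). PRR1 was most like GI (r = 0.777). XCT correlated with the others between r = 0.144 and r = 0.471. PRR73 S1 gave lower values, at r = 0.544 with PRR37 S2, 0.445 with PRR37 S1 and 0.646 with PRR95. PRR37 S1 gave r = 0.851 with PRR73 S2 and 0.763 with PRR95. These values describe 15 groups that share tissue, age and genotype, and the leaf to root gap enters all of them.

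**Figure D4:**
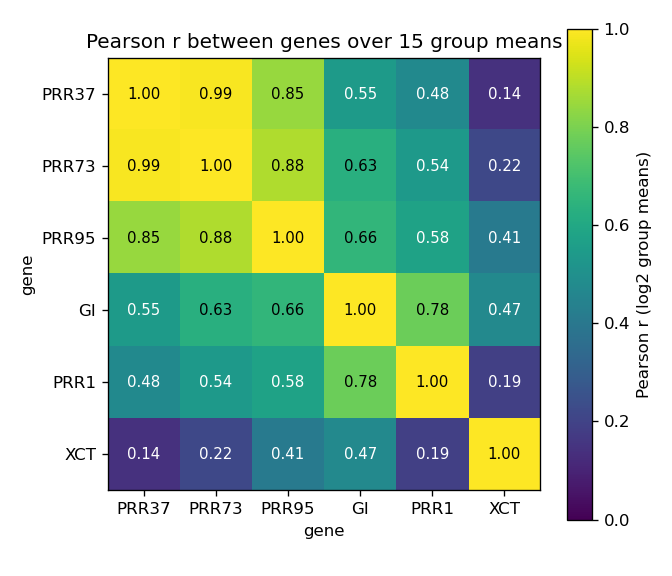
Pearson correlation (colour scale and printed value) between the log2 levels of the 6 genes, listed on both axes, over the 15 group means. Each gene is read by its representative probe set. PRR37, PRR73 and PRR95 form the block of highest values (0.85 to 0.99), and the row of XCT holds the lowest (0.14 to 0.47).

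Among 2104 other tested genes with a descriptive name, those most similar over the 15 group means were taken for each gene's representative probe set. They were BBD1 (r = 0.958), DNG701 (0.833) and OEP21 (0.822) for PRR1, HPT1 (0.988), Osnph1b (0.987) and GATA18 (0.987) for PRR37, and GATA18 (0.986), OsPEX11-1 (0.981) and Osnph1b (0.98) for PRR73. For PRR95 they were CLPC2 (0.93), RNC1 (0.929) and PDS (0.927), for GI IMCEL1 (0.908), JMJ705 (0.809) and CSLE1 (0.8), and for XCT HisRS (0.928), OsC3H44 (0.924) and OsRFC2 (0.912). PRR37 and PRR73 shared GATA18 and Osnph1b among their 3 nearest, and no other gene appeared for more than 1 clock gene.

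The rest of the clock was reached only in part. A search for 20 further clock names gave 2 tested genes, CCA1 and PCL1, the second related to the Arabidopsis evening gene LUX. In young leaves CCA1 stood at 11.97 in the B parent, 9.38 in the hybrid and 7.46 in the R parent, and PCL1 at 6.18, 11.17 and 14.41. In both the hybrid mean thus lay between the parents, where PRR95 and GI lay above both. Against the mid-parent 1 of the 2 genes was still called higher in hybrid young leaves (46.9% of all probe sets called). In hybrid young roots 1 was called higher and 1 lower (20.3%).

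Of 7 tested genes that act in flowering (18 names searched), 3 were higher and 2 lower in young leaves of the R parent than of the B parent (median 0.36, beside -0.06 over all probe sets). In that comparison 46.3% of all probe sets were called. GHD8, which delays flowering in long days, was higher by 2.73 ± 0.31 (10.32 against 7.60, adjusted p = 3.58e-09). HD1, the gene through which GI acts on flowering, stood at 5.46 in the R parent and was close to background in the B parent (3.01). It was higher by at least 0.46 with the B parent mean set to 5. The limma test was of the means as read (adjusted p = 1.76e-08). One of the 2 lower genes, EHD3, was under 5 in both parents and has no order. Against the mid-parent in hybrid young leaves 1 of the 7 passed as higher and 2 as lower (median -0.25), where 46.9% of all probe sets were called. GHD8 fell (-1.34 ± 0.26, adjusted p = 8.93e-05), with a level of 7.62 beside 7.60 in the B parent. EHD3 was higher by at least 0.10 with the mid-parent set to 5, where the limma test was of the values as read (adjusted p = 0.00115). HD1 was under 5 in the hybrid and as a mid-parent.

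All 4 tested photoreceptor genes (12 names searched) rose against the mid-parent in hybrid young leaves, where 46.9% of all probe sets were called. Their median was 0.83, beside 0.17 over all probe sets. They were the phytochrome genes PHYA (1.61 ± 0.27, adjusted p = 8.1e-06), PHYB (0.64 ± 0.14) and PHYC (0.54 ± 0.14) and the blue-light receptor gene PHOT1A (1.02 ± 0.18, adjusted p = 2.31e-05). In young roots 2 of the 4 rose (20.3% of all probe sets were called), PHOT1A by 1.13 ± 0.18 (adjusted p = 1.3e-05) and PHYC by 0.48 ± 0.14 (adjusted p = 0.00922). In mature roots PHOT1A was lower than the mid-parent (-0.99 ± 0.18, adjusted p = 0.000118).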

How the data were processed

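The authors deposited 1 table of intensity values on a linear scale for 57381 probe sets (123 of them controls) on 45 arrays, made with GCRMA per the submitters' processing notes, of which no version is given in the sources used here. The values were converted to log2 after setting those under 1 to 1 (0 values), with no further normalization. Median array intensity lay between 6.72 and 7.90 on the linear scale, not in log2. No array pair was identical, and the highest correlation between arrays was 0.998. Groups and replicate numbers came from the labels.

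One limma model (3.58.1, R 4.3.3; 30 residual degrees of freedom) gave each group its mean. It took in the 24130 non-control probe sets that averaged 5 or more on the log2 scale in any group. P-values were adjusted by Benjamini-Hochberg within each comparison, with a threshold of 0.05. The fit was tested on simulated data with known changes. Outside both parents means called against each parent with the same sign. The annotation pairs 22436 probe sets with 1 gene, 95 with several and 34850 with none. Tables were made in Python 3.11.15 and figures with matplotlib 3.10.9.

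The 6 genes and the lists of other clock, flowering, light and marker genes were chosen with earlier results of these data known. All 6 genes and all their probe sets are named, and where a gene has several, the one with the highest mean represents it. For each, the 3 named genes with the highest correlation over the 15 group means are given. The rule asked for RefSeq symbols, but only 74 tested genes had one that was not a locus code, so descriptive synonyms were admitted once the annotation was seen and before any correlation was computed. Of each list up to 3 genes with the largest difference are named per comparison. All members of the photoreceptor list, which has 4, are named, the fourth after its value was seen. Promoter motifs were not searched, because no promoter sequences were used here.

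Replicate numbers did not pair the arrays, since deviations from the group means correlated between -0.114 and 0.0495 (averages per stage) at equal numbers. The alternatives were quantile normalization, no filter and a filter at 6, array weights, the compared stages alone, a replicate block, the 3' index (3' minus 5' signal of 4 control genes) or the mean of 9 hybridization spike-in probe sets as a covariate, each array left out, a linear mid-parent, and all probe sets counted. Leaving out young leaf R parent replicates 1 and 2, which had the lowest XCT values, was chosen after seeing the data, as was the root marker mean without NAAT1.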

Additional observations from a re-analysis of the deposited data

Results flagged for a closer look

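The values below are tests of the difference between 2 stages in the same contrast, each a log2 difference from limma with the adjusted p over all probe sets. The R parent minus B parent difference was larger in young than in mature leaves by 3.18 for PRR1 (adjusted p = 1.58e-12) and changed by -0.93 for XCT (adjusted p = 0.00256). By PRR73 S1 this change was -2.13 (adjusted p = 2.31e-05). Between young and mature roots the same contrast changed by 2.66 for PRR1 (adjusted p = 5.56e-11), 1.57 for GI (7.35e-07), 1.10 for PRR37 (0.0137) and 0.49 for PRR73 (0.0244). By PRR73 S1 that change was -1.48 (adjusted p = 0.00133). Between young leaves and young roots the R minus B difference changed by 0.74 for PRR1 (adjusted p = 0.0141), -0.98 for GI (0.000725) and -0.73 for XCT (0.015). The last was -0.34 (adjusted p = 0.223) after quantile normalization, and it also did not pass in a fit of these stages alone or without young leaf R parent replicate 2 or B parent replicate 1 (adjusted p = 0.0545 to 0.0722). PRR73 S1 changed by -2.31 between young leaves and young roots (adjusted p = 6.02e-06).

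The hybrid minus mid-parent difference was larger in young than in mature leaves by 1.89 for PRR95 (adjusted p = 1.1e-06), 1.62 for PRR1 (4.66e-07), 1.62 for GI (1.58e-07), 0.85 for XCT (0.00159) and 0.63 for PRR73 (0.00174). It was larger in young than in mature roots by 2.32 for PRR95 (adjusted p = 2.59e-08) and 0.76 for PRR1 (0.00764). It was larger in young leaves than in young roots by 1.34 for GI (adjusted p = 2.28e-06), 0.99 for PRR1 (0.000334) and 0.70 for XCT (0.0074). Without young leaf R parent replicates 1 and 2 the change of R minus B parent in XCT was -0.35 between young and mature leaves and -0.15 between young leaves and young roots (adjusted p = 0.328 and 0.692), and that of GI between young leaves and young roots -0.52 (0.108). Groups of 3 arrays were not examined for single outlying samples.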

How the results depend on the processing

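Numbers of the 6 genes called that moved by more than 1.5 times are given by setting. With array weights they were 5 for R minus B parent in young roots (3 as reported), 2 for it in mature leaves (1), 4 for hybrid minus R parent in young roots (2) and 2 in mature leaves (0), and 2 outside both parents in young roots (1). With the spike-ins as a covariate they were 2 for R minus B parent in mature leaves, 1 for hybrid minus B parent (2) and 1 for hybrid minus R parent (3) in mature roots, 3 for young leaf minus young root (5) and 2 outside both parents in young roots. In fits of the compared stages alone they were 2 for R minus B parent and 1 each for hybrid minus B parent (0) and minus R parent (0) in mature leaves, 1 each for hybrid minus B parent and minus R parent in mature roots, and 2 outside both parents in young leaves (4). With the 3' index they were 0 for hybrid minus R parent in mature roots and 3 for flag minus mature leaf (5). Counting all 8 probe sets gave 2 for R minus B parent and 1 for hybrid minus B parent in mature leaves, 1 for hybrid minus mid-parent in mature roots (0), and in flag leaves 2 against the B parent, 1 against the R parent, 2 against the mid-parent and 1 outside both (each 0). Without young leaf R parent replicates 1 and 2, the change of R minus B parent was called in 1 gene (2) between young and mature leaves and 1 (3) between young leaves and young roots. Signs turned in 4 results: PRR73 was -0.25 for mature minus young leaf after quantile normalization, and -0.088 for flag minus mature leaf and -0.073 for the change of R minus B parent between young and mature roots with the 3' index, and PRR95 was 1.16 (adjusted p = 0.0224) for the change of R minus B parent between young and mature leaves with the spike-ins. The cause was not tested. With each array left out the counts ranged from 1 to 2 for hybrid minus B parent and 1 to 3 for hybrid minus R parent in mature roots (1 without hybrid replicate 3), 2 to 4 for hybrid minus mid-parent in young roots (2 without hybrid replicate 2 or B parent replicate 3), 2 to 5 for the change of R minus B parent between young and mature roots (2 without mature root R parent replicate 1 or 3) and 1 to 3 between young leaves and young roots (1 without young leaf R parent replicate 2), and 2 to 4 outside both parents in young leaves (2 without hybrid replicate 2). The replicate block changed 1 of 248 results on single probe sets, the change of R minus B parent in PRR95 between young and mature roots, which was 0.67 with adjusted p = 0.0454 in place of 0.0617. With 3 arrays a group, a difference of 0.56 (PRR37, hybrid minus mid-parent in young roots, adjusted p = 0.0781) did not pass. Larger ones failed too, such as -1.315 for PRR37 S1 (change of R minus B parent between young and mature leaves, adjusted p = 0.172).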
